A study of Mus musculus with 6 samples.

Results

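The genes described here drive cells through S phase and mitosis. They are 16 genes of DNA replication and nucleotide supply, 22 genes of mitosis and 11 cyclins, cyclin-dependent kinases (CDKs) and other regulators of entry into the cycle, 49 in all. A gene counted as measured where at least 1 probe row carried its symbol alone and both times had it on 2 or more arrays. Rows of the same gene were averaged. This left 45 genes on 64 rows, of 16678 features tested in the series: all 16 replication genes, 21 mitosis genes and 8 regulators. Ccnb1, Ccnd1, Ccne2 and E2f1 did not meet the rule and are not analysed here.

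Both arms were C57BL/6J-Ghrhr<lit> (lit/lit) mice. A disrupted Ghrhr, the receptor through which the hypothalamus drives secretion of growth hormone (GH), makes them GH-deficient, so the control arm lacks GH too and there was no arm with normal GH. At 4 weeks of age they were injected once under the skin with GH at 4 mg per kg body weight or with the vehicle, phosphate-buffered saline (PBS), and bone was taken. RNA of 2 animals was pooled per sample, and each of 6 arrays set 1 GH pool (Cy5) against 1 PBS pool (Cy3), 3 arrays at 6 hours (replicates 1 to 3) and 3 at 24 hours (replicates 4 to 6). Values are log2 ratios of GH over PBS, a direction that the dyes in the labels make likely but do not state. No dyes were swapped, so a dye effect of a single probe adds to every ratio.

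Before S phase the origin recognition complex, Cdc6 and Cdt1 load the Mcm2 to Mcm7 helicase onto origins, which is called licensing; geminin blocks reloading. The kinase Cdc7 and the helicase cofactor Cdc45 then start the forks, Pcna clamps the polymerases to DNA, and ribonucleotide reductase and thymidylate synthase supply nucleotides. In G2 and M, Cdk1 with B-type cyclins, the Aurora and Polo kinases and the transcription factor Foxm1 bring on mitosis, and spindle motors, the checkpoint and the anaphase-promoting complex carry it through. Many of these genes are transcribed in proliferating cells and kept low in quiescent cells by the RB and E2F proteins and the DREAM complex. Bone with its marrow holds dividing blood cell precursors, growth plate chondrocytes and osteoblast precursors beside many cells that do not divide. In such bulk RNA, fewer cells of a type and less RNA per cell cannot be told apart.

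The arrays held between 18302 and 19961 values. Their SD ran from 0.466 on replicate 1 to 0.913 on replicate 6, and replicate 1 correlated with the others at r = 0.231 to 0.364 over features, against 0.564 to 0.821 for the other pairs. The number of arrays limits the precision. The deposited ratios hold no channel signal, so neither the level of a gene nor the presence of bone markers could be checked.

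The cell cycle genes tended to lie below 0, to a degree that differed between arrays. Their mean log2 ratio was 0.06, -0.18 and -0.59 on the 6 hour replicates 1, 2 and 3. At 24 hours it was -0.41, -0.10 and -0.36 on replicates 4, 5 and 6. Replicates 3, 4 and 6 were thus low, replicates 2 and 5 nearer 0 and replicate 1 above it, and the 2 times overlapped. On replicate 3, 39 of the 45 genes lay below 0 (86.7%), and on replicate 1 only 16 did (35.6%), while 47.1% to 50.6% of all features did on each array.

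The low values of replicates 3 and 4 were shared among genes of different roles. Replicate 3 was the lowest of the 6 arrays in 24 of the 45 genes, replicate 4 in 10 and replicate 6 in 7. Over all features replicate 3 was the lowest in 10.9%, replicate 4 in 12.1% and replicate 6 in 20.7%, so replicate 6 was the lowest in a smaller share of these genes than of all features. Replicate 3 lay below both other 6 hour arrays in 38 genes (84.4%; 29.4% of all features). At 24 hours, replicate 4 lay below replicate 5 in 38 genes as well, against 43.8% of all features, and replicate 6 lay below it in 27 (45.8% of features). Below 0 on all 6 arrays were 7 genes, Cdc7, Cdc45, Orc1, Aurka, Cdc20, Prc1 and Tpx2, 7 of 45 beside 15.7% of all features. Foxm1 was the 1 gene of 45 above 0 on every array, where 20.3% of all features were.

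**Figure D1:**
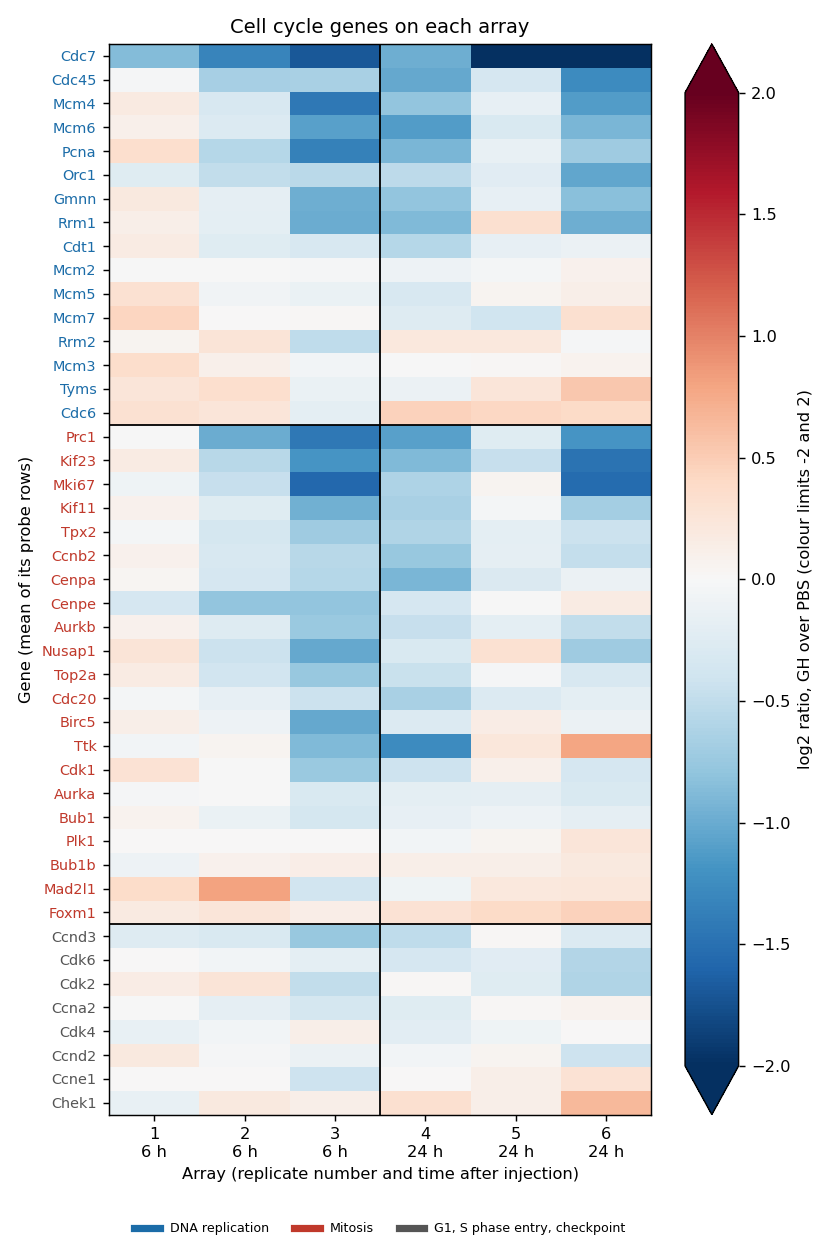
Log2 ratio of GH over PBS for each of the 45 measured genes (rows, by class, mean of a gene's probe rows) on each of the 6 arrays (columns, replicates 1 to 3 at 6 hours and 4 to 6 at 24 hours). Blue is below 0 and red above, with colours limited at -2 and 2; replicates 3, 4 and 6 hold most of the deep blue, Cdc7 is blue and Foxm1 red on all 6 arrays.

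Markers of the neutrophil lineage and of skeletal muscle also differed between arrays. Measured markers of the neutrophil lineage (7 of 16 listed) averaged 0.06, -0.66 and -1.08 on replicates 1 to 3 and -1.69, -0.65 and -0.87 on replicates 4 to 6. All 7 had mean ratios below 0 at both times, and 4 (57.1%) were called lower at 24 hours, beside 8.62% of all features. Skeletal muscle markers (10 of 20 listed) averaged 0.14, 0.64 and 1.13, then 0.91, 0.11 and 0.25, and all 10 were above 0 at both times. In limma 0 of the 10 were called at 6 or 24 hours, where 3.62% and 20.6% of all features were. At an unadjusted p under 0.05 were 6 and 1 of them, beside 26.6% and 40.5% of features. Over both times 4 (40%) were called higher, beside 19.3% of features. Erythroid markers (6 of 15) averaged between -0.27 and 0.34, B lineage markers (7 of 14) between -0.20 and 0.25, and osteoblast and osteocyte markers (7 of 17) between -0.07 and 0.05. The last 2 averages covered unlike genes. Over both times Blnk of the B lineage was called higher (0.96, adjusted p = 0.00340), and 4 of those 7 were below 0. Msx2 of the osteoblast list was called higher (0.92, 0.0176, n = 5 arrays), and the other 6 were below 0. Growth plate chondrocyte markers (3 of 14) went opposite ways: over both times Col9a3 was higher (0.87, above 0 on all arrays) and Col2a1 (-0.67) and Hapln1 (-0.95) were lower, below 0 on all arrays. Osteoclast markers (5 of 12) averaged between -0.11 and 0.27, and endothelial markers (6 of 8) between -0.15 and 0.08. These averages covered unlike genes too. Over both times Calcr of the osteoclast list was called higher (0.97, adjusted p = 0.0106), and 3 of those 5 were below 0. Mmp9 was called lower at 24 hours (-0.44, 0.0480). Kdr of the endothelial list was called lower over both times (-0.35, 0.0221), and 3 of those 6 were above 0. Tfrc of the erythroid list was called higher (0.33, 0.0376), and 3 of those 6 were below 0. T and NK cell markers (2 of 11) averaged between -0.03 and 0.38. Over both times Cd3e was called higher (0.41, 0.0177) and Cd2 was not (-0.04, 0.826). Of all features 35.5% were called over both times. The 1 megakaryocyte marker measured (of 7), Ppbp, ran from -1.15 to 0.75. The part of any of these cell types in the values of the cell cycle genes was not tested.

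**Figure D2:**
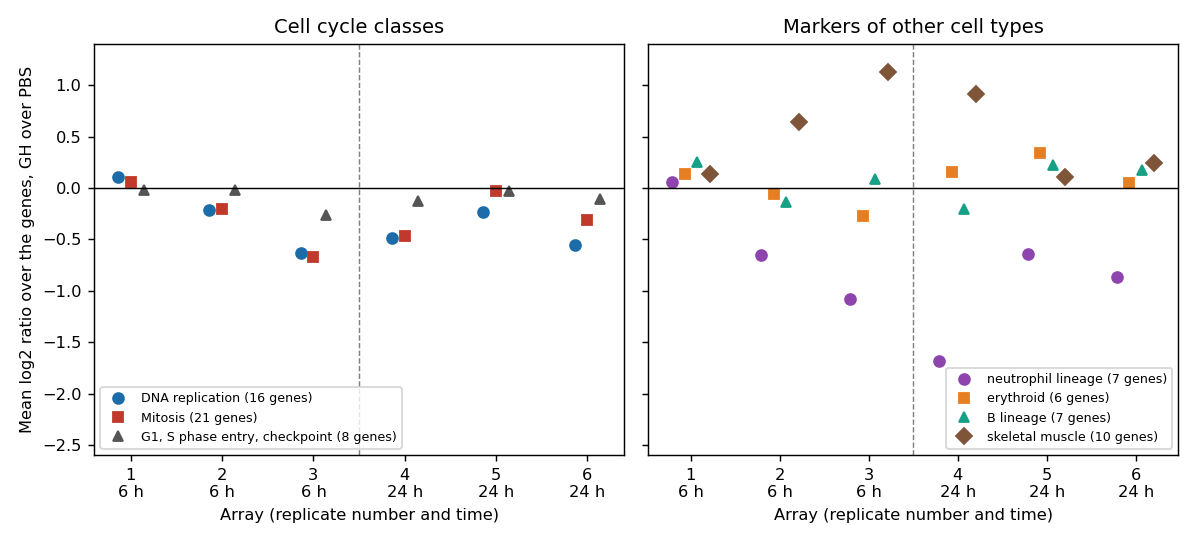
Mean log2 ratio of GH over PBS on each array (x axis, replicate and time), as 1 point per list, for replication, mitosis and regulator genes (left) and for neutrophil, erythroid, B lineage and skeletal muscle markers (right). Replication and mitosis genes lie lowest on replicate 3 (-0.63 and -0.67), where neutrophil markers average -1.08 and muscle markers 1.13. Neutrophil markers lie lowest on replicate 4 (-1.69).

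At 6 hours no cell cycle gene passed the test. With limma, 0 of 45 had an adjusted p under 0.05, where 3.62% of all features did, 2.91% higher and 0.702% lower (5 of the 45 had an unadjusted p under 0.05, and 26.6% of features). The lowest adjusted p was that of Cenpe, the kinesin that links chromosomes to spindle microtubules (-0.64 ± 0.15, SE, adjusted p = 0.0710). The median of the 45 genes was -0.22, with 34 below 0, beside -0.02 for all features, of which 51.8% were below 0. By class, the medians were -0.23 for replication (11 of 16 below 0), -0.30 for mitosis (17 of 21) and -0.06 for regulators (6 of 8). With array weights the count was 10, when 37.4% of all features passed, and without replicate 1 it was 1 (9.09%).

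At 24 hours 3 of the 45 genes passed (6.67%), beside 20.6% of all features (in limma, 14 genes and 40.5% of features had an unadjusted p under 0.05). Cdc7 and Cdc45, which both act at the firing of origins, fell, and Foxm1 rose. Of all features 8.62% were called lower and 12% higher. The median was -0.24, with 35 of 45 below 0, beside 0.00 for all features with 49.8% below. Replication genes had a median of -0.40 (12 of 16 below 0), mitosis genes -0.24 (17 of 21) and regulators -0.12 (6 of 8). Leaving out replicate 1 gave 4 calls (25.4% of all features), and leaving out replicate 2, 3 or 4 gave 1 (12.7%, 11.6% and 5.21%). Leaving out replicate 6 gave 0, and 0% of all features. The count was also 0 with 24 hours fitted alone, where 13.7% of all features passed, and with a term for the prefix of the scan file name, where 0.192% did. Replicates 4 and 6 carry another prefix than the other 4 arrays, so within the shared prefix 24 hours is replicate 5 alone.

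**Figure D3:**
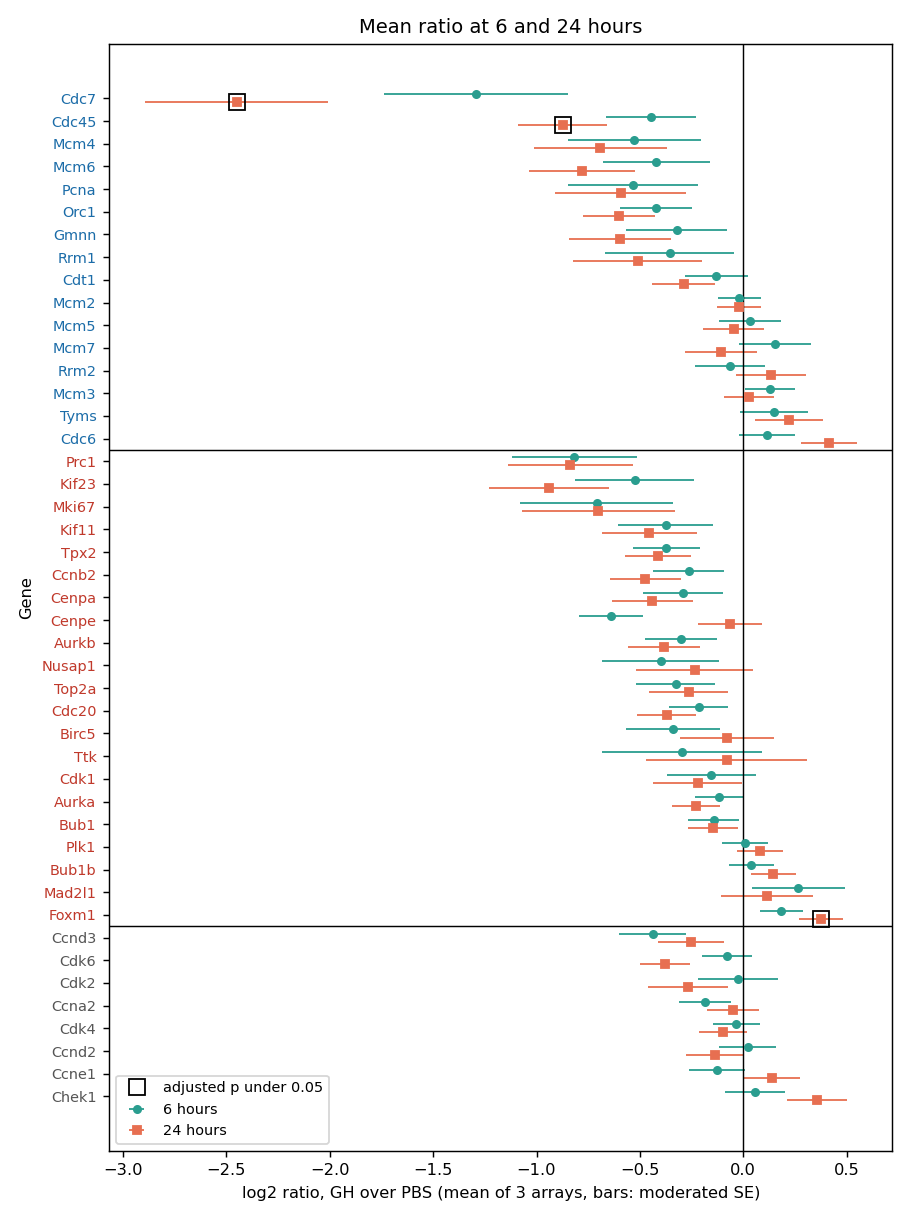
Mean log2 ratio of GH over PBS (x axis) of each of the 45 genes at 6 hours (circles) and 24 hours (squares), n = 3 arrays each, with bars of limma's moderated SE and a black box where adjusted p was under 0.05. Most means lie left of 0, Cdc7 stands apart at -1.29 and -2.45, and the boxes mark Cdc7, Cdc45 and Foxm1 at 24 hours.

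The difference between the times was tested on its own. 0 of 45 genes passed, as did 0% of all 16678 features (with limma, 1 gene and 3.03% of features had an unadjusted p under 0.05). That gene was Cenpe, with a difference of 0.58 ± 0.22 at 24 over 6 hours. The 3 arrays of each time did not overlap in 3 genes, beside 9.47% of all features. These were Cdc6 and Foxm1, higher at 24 hours, and the G1 kinase Cdk6, lower. The mean of both times was tested as well.

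Over both times 9 of the 45 genes passed (20%), fewer in proportion than the 35.5% of all features. Lower with GH were 8: the replication genes Cdc7, Cdc45, Mcm6 and Orc1 and the mitosis genes Prc1, Kif23, Tpx2 and Cenpe. These 8 make up 17.8% of the genes, and 16.2% of all features were called lower. Foxm1 was higher (19.3% of features were). The median over both times was -0.21 with 34 of 45 below 0, beside -0.01 for all features (in limma, 21 genes and 48.5% of features had an unadjusted p under 0.05). Without replicate 2, 3 or 4, or with the prefix term, only Cdc7 of the 9 still passed. Of all features 14.4%, 14.2% and 21.9% passed without replicates 2, 3 and 4 in turn. Leaving out replicate 1 gave 16 calls (40.9% of all features), replicate 5 gave 11 (33%) and replicate 6 gave 2 (20.8%). Array weights gave 23 (50.3%).

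Of the licensing genes, Orc1, the large subunit of the origin recognition complex, had ratios of -0.24, -0.49 and -0.54 at 6 hours and -0.53, -0.23 and -1.04 at 24 hours. All 6 arrays were below 0 and the times overlapped. Over both times Orc1 fell (-0.51 ± 0.12, SE, n = 6 arrays, 1.42-fold, adjusted p = 0.0223). Its 2 probe rows disagreed, as described below with the rows.

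Mcm6, a subunit of the replicative helicase, read 0.10, -0.27 and -1.09, then -1.12, -0.30 and -0.92. Replicates 3, 4 and 6 were low and the other arrays lay near 0. Mcm6 fell over both times (-0.60 ± 0.18, 1.52-fold, adjusted p = 0.0442). Mcm4 had nearly the same profile, 0.18, -0.32 and -1.43 at 6 hours and -0.79, -0.17 and -1.12 at 24 hours, and did not pass (-0.61 ± 0.23, adjusted p = 0.0778). The other helicase subunits did not share it: over both times Mcm2 (-0.02), Mcm3 (0.08), Mcm5 (-0.01) and Mcm7 (0.02) averaged near 0, with single arrays between -0.40 and 0.43. Subunits of a single complex thus gave unequal ratios on these arrays, and whether the ratios of the subunits differed from each other was not tested.

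Cdc6, which loads the helicase together with Cdt1, was 0.31, 0.24 and -0.20 at 6 hours and 0.45, 0.41 and 0.38 at 24 hours. Its 24 hour arrays lay above all of the 6 hour arrays, but neither time passed (0.12, adjusted p = 0.611, and 0.41 ± 0.13, adjusted p = 0.0699), nor did both together (0.27 ± 0.10, adjusted p = 0.0699). Cdt1 averaged -0.21 over both times (adjusted p = 0.168). Gmnn, the gene of geminin, read 0.19, -0.18 and -0.97, then -0.79, -0.17 and -0.84. It was low on the same 3 arrays as Mcm4 and Mcm6 and did not pass (-0.46 ± 0.17, adjusted p = 0.0798).

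Among the genes that start replication, Cdc7 had the lowest mean ratio of the 45 genes at both times. It read -0.86, -1.32 and -1.69 at 6 hours and -0.97, -3.06 and -3.32 at 24 hours. All arrays were below 0, with replicates 5 and 6 far below the other arrays, and replicate 4 lay within the range of the 6 hour arrays. The 6 hour mean did not pass (-1.29 ± 0.44, adjusted p = 0.135), and the 24 hour mean did (-2.45 ± 0.44, 5.47-fold lower, adjusted p = 0.0190). Over both times Cdc7 fell 3.66-fold (-1.87 ± 0.31, adjusted p = 0.00858), and this call held under all 14 alternatives run, with adjusted p between 0.00351 and 0.0414. The 24 hour call was lost without replicate 6 (-2.02, adjusted p = 0.0960), with the time fitted alone (0.0512) and with the prefix term (-3.06, 0.142). A single probe row stood for Cdc7, so no other row could be set against it.

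Cdc45, a part of the active helicase, read -0.03, -0.67 and -0.64, then -1.03, -0.34 and -1.25. Every array was below 0, and replicates 4 and 6 were lowest. The gene fell at 24 hours (-0.87 ± 0.22, 1.83-fold, adjusted p = 0.0371) and over both times (-0.66 ± 0.15, 1.58-fold, adjusted p = 0.0202), and did not pass at 6 hours (adjusted p = 0.241). The 24 hour call was lost without replicate 2 (adjusted p = 0.0599), 3 (0.0628), 4 (0.138) or 6 (0.172).

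Pcna, the sliding clamp, was 0.33, -0.58 and -1.36 at 6 hours and -0.92, -0.15 and -0.71 at 24 hours. It ranged from above 0 on replicate 1 to its lowest value on replicate 3 within the 6 hour arrays alone, and did not pass (-0.56 ± 0.22 over both times, adjusted p = 0.0903). Of the genes of nucleotide supply, Rrm1 averaged -0.43 over both times (adjusted p = 0.163) and Rrm2 0.03 (0.841). These encode the large and small subunits of ribonucleotide reductase. Tyms, thymidylate synthase, averaged 0.18 (0.246). None of the 3 passed in any of the 4 comparisons.

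Of the 21 mitosis genes, 4 were called lower over both times (19%), beside 16.2% of all features. These were Prc1, Kif23, Tpx2 and Cenpe. Among genes that act on spindle microtubules, Kif11 and Nusap1 were not called. Prc1, which bundles midzone microtubules, read -0.01, -1.0 and -1.43 at 6 hours and -1.09, -0.23 and -1.18 at 24 hours. It was below 0 on all arrays, with replicates 1 and 5 nearest 0. Prc1 fell over both times (-0.83 ± 0.21, 1.77-fold, adjusted p = 0.0283), with close means at 6 hours (-0.82) and at 24 hours (-0.84), neither of which passed alone. Kif23, the motor of the centralspindlin complex, was 0.16, -0.56 and -1.18, then -0.89, -0.45 and -1.47. Only replicate 1 was above 0, and the gene fell over both times (-0.73 ± 0.20, 1.66-fold, adjusted p = 0.0347).

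Tpx2, which activates Aurora A and seeds spindle microtubules, read -0.04, -0.36 and -0.71, then -0.60, -0.20 and -0.43. All arrays were below 0 within a narrower range than those of Prc1 and Kif23. Tpx2 fell over both times (-0.39 ± 0.11, 1.31-fold, adjusted p = 0.0385). Kif11, the motor that separates spindle poles, averaged -0.41 (adjusted p = 0.0880) and Nusap1, which binds spindle microtubules, -0.32 (0.246), and neither passed.

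Cenpe read -0.34, -0.80 and -0.79 at 6 hours and -0.34, -0.01 and 0.16 at 24 hours. Its lowest arrays were replicates 2 and 3, and replicates 5 and 6 lay near 0 or above it. It fell over both times (-0.35 ± 0.11, 1.28-fold, adjusted p = 0.0468), while the 24 hour mean was -0.06 (0.782). On replicate 1 only 1 of its 2 rows had a value. Of the other genes of chromosomes and centromeres, Cenpa, the centromeric histone, averaged -0.37 (adjusted p = 0.0796), Top2a, which untangles DNA, -0.30 (0.131), and Birc5, a part of the chromosomal passenger complex, -0.21 (0.335).

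Mki67, the proliferation marker that coats mitotic chromosomes, was -0.09, -0.46 and -1.57, then -0.62, 0.06 and -1.54. Replicates 3 and 6 stood well below the others, and it did not pass (-0.71 ± 0.26 over both times, adjusted p = 0.0766). Aurkb, the kinase of the passenger complex, was 0.08, -0.25 and -0.74, then -0.45, -0.20 and -0.49. Its arrays overlapped between times, with replicate 3 lowest, and it did not pass either (-0.34 ± 0.12, 0.0700).

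Of the genes that bring cells into mitosis, only Foxm1 passed, and it was higher with GH. It encodes a transcription factor of G2 and M genes, and read 0.18, 0.24 and 0.14 at 6 hours and 0.29, 0.39 and 0.45 at 24 hours. All arrays were above 0 within a narrow range, and the times did not overlap. Foxm1 rose at 24 hours (0.38 ± 0.11, 1.30-fold, adjusted p = 0.0495) and over both times (0.28 ± 0.07, 1.21-fold, adjusted p = 0.0299). The 24 hour call held in 1 of 15 alternatives, where adjusted p lay between 0.0464 and 0.472. It was lost without any 1 of the 6 arrays and under each rescaling. The call over both times was lost without any of replicates 2 to 6.

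Ccnb2, a B-type cyclin, was 0.08, -0.32 and -0.56, then -0.76, -0.18 and -0.47. It was above 0 on replicate 1 only and did not pass (-0.37 ± 0.12, adjusted p = 0.0549). The kinase genes averaged -0.19 for Cdk1 (0.360), -0.17 for Aurka (0.138) and 0.04 for Plk1 (0.681) over both times. Aurka was below 0 on all 6 arrays, and Plk1 lay between -0.06 and 0.24.

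At the spindle checkpoint, Cdc20, the activator of the anaphase-promoting complex that the checkpoint holds back, read -0.04, -0.17 and -0.43, then -0.64, -0.27 and -0.20. It was below 0 on all arrays and did not pass (-0.29 ± 0.10, adjusted p = 0.0609). The checkpoint genes Bub1 (-0.14), Bub1b (0.09), Mad2l1 (0.19) and Ttk (-0.19) did not pass either, with adjusted p between 0.223 and 0.610. Ttk spread most among these on single arrays, from -1.25 on replicate 4 to 0.78 on replicate 6.

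None of the 8 regulators passed in limma in any comparison, with 1 at an unadjusted p under 0.05 at 6 hours and 2 both at 24 hours and over both times. Their median over both times was -0.09, beside -0.32 for replication and -0.30 for mitosis genes. Among the regulators, Ccna2, Ccnd2 and Cdk6 are means of rows of opposite sign, described below with the rows. The same holds for Orc1 and Tyms of replication and for Bub1 and Mad2l1 of mitosis. Ccnd3, a D-type cyclin that drives G1 with Cdk4 or Cdk6, was -0.25, -0.30 and -0.76 at 6 hours and -0.51, 0.03 and -0.27 at 24 hours (-0.35 ± 0.11 over both times, adjusted p = 0.0549). Replicate 3 was lowest and the times overlapped. Cdk6 was 0.01, -0.05 and -0.19, then -0.33, -0.22 and -0.58. Each 24 hour array lay below each 6 hour array, and the 24 hour mean did not pass (-0.38 ± 0.12, adjusted p = 0.0682).

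Ccna2, the cyclin of S phase and G2, was -0.01, -0.18 and -0.36, then -0.24, 0.03 and 0.07. Both times spanned values near 0 (-0.12 ± 0.09, adjusted p = 0.331). Chek1, the kinase that halts the cycle when forks stall, was -0.15, 0.20 and 0.12, then 0.32, 0.11 and 0.64. It was above 0 on 5 of 6 arrays and did not pass (0.21 ± 0.10, 0.152). Cdk2 (-0.15), Cdk4 (-0.07), Ccnd2 (-0.06) and Ccne1 (0.0042) did not pass over both times, with adjusted p between 0.419 and 0.977.

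Replication genes were then set against mitosis genes on each array, as the mean ratio of the 16 replication genes minus that of the 21 mitosis genes. The difference was 0.05, -0.00 and 0.04 on replicates 1 to 3, with a mean of 0.03 ± 0.03 (SD, n = 3 arrays) at 6 hours. It was -0.02, -0.21 and -0.24 on replicates 4 to 6, with a mean of -0.16 ± 0.12 at 24 hours. The 2 classes thus lay close together on replicates 1 to 4, and replication genes lay below mitosis genes on replicates 5 and 6. No test was made of these scores, since the genes were chosen with results known.

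Replication and mitosis genes each varied more between arrays than they differed from each other. Replication genes averaged -0.25 ± 0.37 at 6 hours and -0.42 ± 0.17 at 24 hours (SD, n = 3 arrays each), mitosis genes -0.28 ± 0.37 and -0.27 ± 0.22, and regulators -0.10 ± 0.14 and -0.09 ± 0.05. The size of the gap at 24 hours depended on how Cdc7 was treated. Leaving out that gene, a step chosen after the values were seen, gave differences of 0.11, 0.07 and 0.12 at 6 hours (0.10 ± 0.02) and 0.01, -0.02 and -0.06 at 24 hours (-0.02 ± 0.03). With medians over genes in place of means and Cdc7 kept, the difference was 0.12 at 6 hours and -0.12 at 24 hours.

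The 12 genes with more than 1 probe row showed how far a gene's mean depended on its rows. In 7 of them, Bub1, Ccna2, Ccnd2, Cdk6, Mad2l1, Orc1 and Tyms, rows lay on both sides of 0 over both times. In 3, Bub1, Ccna2 and Mad2l1, rows passed in opposite directions. With each row fitted as its own feature, over both times 17 of 64 rows passed, 5 higher and 12 lower, beside 35.5% of all row features (19.2% higher, 16.3% lower). At 24 hours 9 rows passed, 4 higher and 5 lower, beside 21.3% of row features (12.4% higher, 8.87% lower). At 6 hours 0 rows passed in limma, beside 3.38% of row features called (2.75% higher, 0.636% lower). Rows of 12 genes had an unadjusted p under 0.05 there, and the share of all row features at that threshold was not counted.

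Bub1 had 3 rows, numbered as they stand in the table. Row 2 read 0.57, 0.77 and 0.34, then 0.83, 0.57 and 1.32 (0.73 ± 0.12 over both times, adjusted p = 0.00875), and row 3 read -0.12, -1.0 and -1.43, then -1.36, -1.0 and -1.84 (-1.12 ± 0.19, 0.00937). Row 1 stayed near 0 (-0.04, 0.699). Row 2 was above 0 and row 3 below 0 on every array, so the mean of -0.14 describes neither. Mad2l1, which carries the checkpoint signal, had a row at 0.49, 2.09 and 0.68, then 1.05, 0.85 and 1.88 (1.17 ± 0.25, 0.0155). Its other row read 0.25, -0.47 and -1.43, then -1.22, -0.43 and -1.43 (-0.79 ± 0.24, 0.0431). These 2 rows were 1.96 apart on the log2 scale, the widest gap of the 12 genes.

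Row 1 of Orc1 carried the fall of that gene: it read -0.43, -0.94 and -1.09, then -1.15, -0.60 and -2.25 (-1.08 ± 0.22, adjusted p = 0.0144), while row 2 lay between -0.04 and 0.16 (0.06, 0.564). Row 1 of Cdk6 was likewise below 0 on all arrays (-0.94 ± 0.18, 0.0128) and its other 3 rows averaged 0.12, 0.09 and -0.17. For Ccna2 the rows averaged 0.30 (0.0368) and -0.54 (0.0301), and for Tyms 0.69 (0.0186) and -0.32 (0.151). Rows of Mki67 (-0.56, 0.0416, and -0.85, 0.127), Cenpe (-0.55, 0.117, and -0.27, 0.106), Kif11, Top2a and Rrm1 lay on the same side of 0. Which transcript or strand each row detects was not analysed here.

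**Figure D4:**
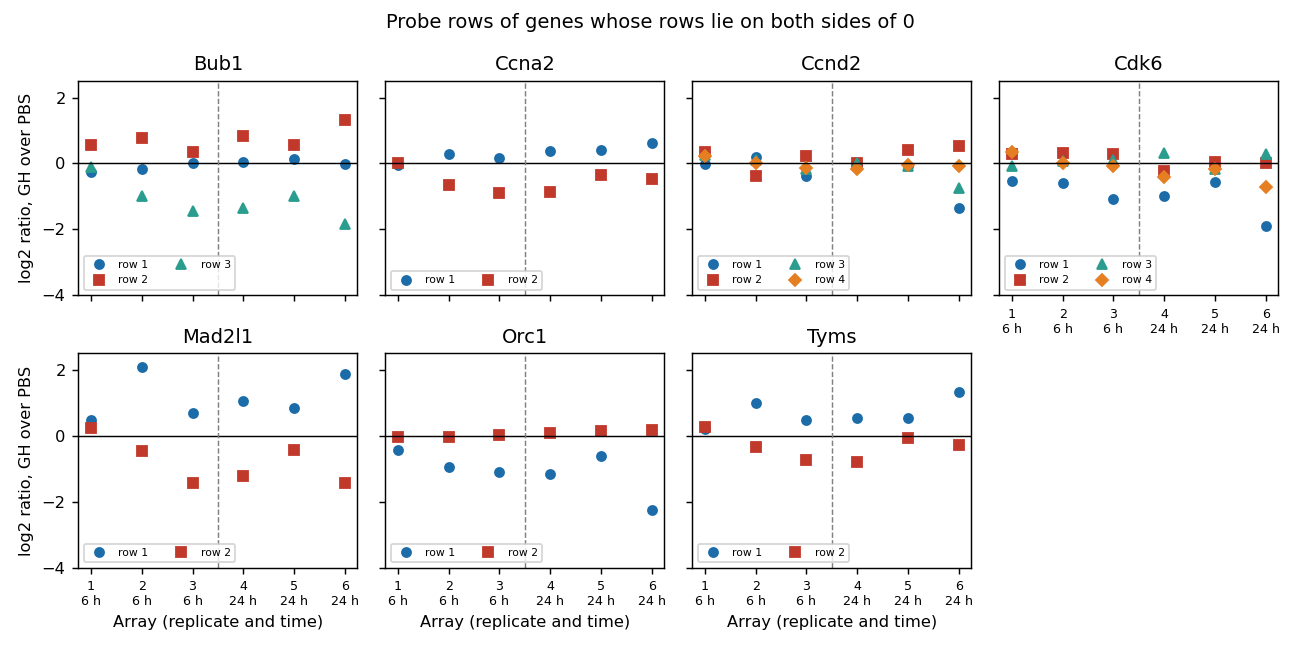
Log2 ratio of GH over PBS (y axis) on each of the 6 arrays (x axis, replicate and time) for every probe row of the 7 genes with rows on both sides of 0, 1 symbol per row. The widest gaps between row means over both times are those of Mad2l1 (1.96) and Bub1 (1.86), and row 1 of Orc1 lies below row 2 on all 6 arrays.

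Promoter windows show what the genes share in sequence, which the choice of genes did not use. Windows of 250 bases before the annotated start were taken from RefSeq (GRCm38.p6) and matched 38 of the 45 genes. Letters of 3 kinds were searched on both strands. For E2F these were TTCCCGC and also TTCGCGC and also TTGCCGC and also TTGGCGC. For the cell cycle homology region (CHR) they were TTTGAA. The last was CCAAT, the box that NF-Y binds. Shown are, for each class, the gene with the smallest p over both times where one passed (Cdc7 of replication, Prc1 of mitosis) and the gene whose mean ratio was nearest 0 (Mcm5, Plk1 and, for regulators, Ccne1). Each is written on the gene's strand, 5′ to 3′, with matches in capitals. Cdc7 is chr5:106964072-106964321 (+), Mcm5 chr8:75109259-75109508 (+), Prc1 chr7:80294201-80294450 (+), Plk1 chr7:122159185-122159434 (+) and Ccne1 chr7:38107491-38107740 (-).
Cdc7: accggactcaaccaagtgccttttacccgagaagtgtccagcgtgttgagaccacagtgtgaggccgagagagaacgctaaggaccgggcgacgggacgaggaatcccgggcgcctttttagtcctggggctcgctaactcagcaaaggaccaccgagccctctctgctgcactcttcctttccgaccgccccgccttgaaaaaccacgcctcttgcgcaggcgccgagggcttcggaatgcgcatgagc
Mcm5: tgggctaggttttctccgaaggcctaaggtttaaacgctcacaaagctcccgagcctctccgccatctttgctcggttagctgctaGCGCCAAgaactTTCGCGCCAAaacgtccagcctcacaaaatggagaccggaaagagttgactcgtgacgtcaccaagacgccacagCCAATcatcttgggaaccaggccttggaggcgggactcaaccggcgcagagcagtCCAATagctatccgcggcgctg
Prc1: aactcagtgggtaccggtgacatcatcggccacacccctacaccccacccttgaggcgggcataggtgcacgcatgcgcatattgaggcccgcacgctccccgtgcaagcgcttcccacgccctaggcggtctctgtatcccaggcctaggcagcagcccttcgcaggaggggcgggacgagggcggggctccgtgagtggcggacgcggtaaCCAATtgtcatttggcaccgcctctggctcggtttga
Plk1: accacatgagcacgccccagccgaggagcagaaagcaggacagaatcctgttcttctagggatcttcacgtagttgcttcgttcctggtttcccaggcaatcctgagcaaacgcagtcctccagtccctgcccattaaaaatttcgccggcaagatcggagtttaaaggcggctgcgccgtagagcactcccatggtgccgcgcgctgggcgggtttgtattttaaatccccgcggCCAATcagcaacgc
Ccne1: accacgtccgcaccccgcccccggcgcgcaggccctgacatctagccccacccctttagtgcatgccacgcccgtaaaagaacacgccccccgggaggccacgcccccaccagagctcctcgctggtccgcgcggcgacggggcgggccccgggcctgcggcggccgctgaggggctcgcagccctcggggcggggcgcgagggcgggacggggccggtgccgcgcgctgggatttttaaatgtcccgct
Mcm5 held 3 E2F matches, 2 of which overlap by 4 bases, and 2 CCAAT boxes. Prc1 and Plk1 held 1 CCAAT box each, and no match of the 3 kinds stood in the Cdc7 and Ccne1 windows. Matches across or past the start could not be seen, and the Prc1 window ends 1 letter short of TTTGAA. Of these 5 windows, chosen by their ratios, those of Cdc7, with the lowest ratios, and Ccne1, near 0, had none of these letters. Mcm5, near 0, had the most. A relation between matches and ratios was not tested.

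E2F letters stood in 7 of 14 replication windows (50%), 2 of 18 mitosis windows (11.1%) and 1 of 6 regulator windows (16.7%), beside 7.97% of all 27025 windows. CCAAT stood in 10 replication windows (71.4%), 15 mitosis windows (83.3%) and 1 regulator window (16.7%), beside 34.5% of all. CHR letters stood in 6 mitosis windows (33.3%) and 2 replication windows (14.3%), beside 16.3% of all, and each of these 8 also held CCAAT. The genes that passed over both times did not stand apart by E2F letters, which were in 28.6% of their 7 windows and 25.8% of the 31 others. CCAAT was in 85.7% and 64.5%. These are matches of letters and say nothing of binding.

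Other genes of the cycle, from lists that leave out the 49, had medians below 0 as well. Of 35 other replication and nucleotide genes measured (of 43 listed), 2 rose and 8 fell over both times (28.6%, below the 35.5% of all features called), and the median was -0.13. Rfc3, a subunit of the clamp loader, was -0.76, -0.62 and -0.84, then -0.81, -0.60 and -0.07 (-0.62 ± 0.11, adjusted p = 0.0112). The polymerase epsilon subunit gene Pole2 (-0.48, 0.0147), the maintenance methyltransferase gene Dnmt1 (-0.56, 0.0174) and Dut, which removes dUTP (-0.35, 0.0178), fell too and were below 0 on all 6 arrays. Of 51 other mitosis genes (of 61), 5 rose and 10 fell (29.4%), with a median of -0.12. Zwint, a kinetochore gene, fell (-0.47, adjusted p = 0.0147) and Cenph, of the inner kinetochore, rose (0.40, 0.0127).

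Genes that control the cycle were called over both times at about the 35.5% of all features or below it. Of 17 RB, E2F and DREAM genes (of 21), 1 rose and 5 fell over both times (35.3%, median -0.14). E2f3, an activator of S phase genes, read -0.67, -0.97 and -1.29, then -1.29, -0.58 and -0.84. It was below 0 on all arrays and fell at 6 hours (-0.97 ± 0.18, adjusted p = 0.0458), at 24 hours (-0.90 ± 0.18, 0.0232) and over both times (-0.94 ± 0.13, 0.00541). Lin52 (-0.55, 0.0107) and Lin37 (-0.72, 0.0115), subunits of the MuvB core of DREAM, and Rbl1, the RB relative p107 (-0.66, 0.0273), also fell. Of 7 CDK inhibitor genes (of 8) none passed in limma over both times, with 1 at an unadjusted p under 0.05, Cdkn1a, the gene of p21 (0.31 ± 0.12, adjusted p = 0.0780). Of 16 ubiquitin ligase genes (of 21), Anapc10 (-0.58, 0.0108) and Skp2 (-0.63, 0.0261), which targets a CDK inhibitor for destruction, fell and 0 rose.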

How the data were processed

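Each of 6 arrays compared bone RNA of GH-injected and PBS-injected lit/lit mice. The deposited log2 ratios, 1 per array and probe row, were used as they stand. Per the labels' protocols, RNA was amplified linearly by T7 transcription from oligo(dT)-primed cDNA before labelling. Software, normalization and flagging were not given in the sources used here. Signal over background is unknown. Gene names came from the platform annotation: 11813 of 21446 rows had 1 symbol, 559 had several, and 1257 rows held no value.

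Rows of 1 symbol were averaged, and other rows stayed single. The functions lmFit and eBayes of limma 3.58.1 in R 4.3.3 fitted 1 mean per time to all 16678 features on all 6 arrays. Tests were two-sided with Benjamini-Hochberg adjustment over all features and a threshold of 0.05. Errors are limma's moderated SE unless called SD. The code was tested on simulated data. The SD of a time covers animals and technique, since pools were of separate animals.

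Values on every array are given for each member called in any of the 4 comparisons and, in each of the 3 classes, for up to 4 further members with the smallest p over both times. Listed genes that are not members were named by smallest p. The members and lists were chosen with earlier results of these data known. Alternatives were centring, scaling, quantile normalization, single rows, other rules for missing values and zeros, robust priors, array weights, each time alone, the scan file prefix and leaving out each array.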

Additional observations from a re-analysis of the deposited data

How the results depend on the processing

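Each array already set a GH pool against a PBS pool. Arrays of 6 hours (replicates 1 to 3) and 24 hours (4 to 6) could not be paired with each other, since pools were of separate animals. The 6 hour count of called genes, 0, became 1 with scaling to equal median absolute deviation (10.7% of all features). It became 2 with quantile normalization (11.8%) and 10 with array weights (37.4%). With an array left out it ran from 0 to 1 (0% to 9.09%). The 24 hour count, 3, became 0 with the time fitted alone (13.7% of all features). With single rows 8 genes had at least 1 called row, in all 9 of 64 rows, beside 21.3% of row features. With an array left out the 24 hour count ran from 0 to 4 (0% to 25.4%). The count over both times, 9, became 23 with array weights (50.3% of all features). With single rows 14 genes had at least 1 called row, in all 17 of 64 rows, beside 35.5% of row features. With an array left out the count over both times ran from 1 to 16 (14.2% to 40.9%). The difference between times gave 0 throughout. Replicates 4 and 6 share a scan file prefix that no 6 hour array has, so with the prefix as a covariate the 24 hour mean is replicate 5 alone. Replication minus mitosis at 6 hours became 0.12 with medians over genes and 0.10 without Cdc7. At 24 hours it was -0.12 with medians and -0.0205 without Cdc7, an alternative chosen after seeing the data. With an array left out, the 24 hour mean ran from -0.176 to 0.0768 for Cenpe and from -0.105 to 0.0458 for Ccna2, each highest, and above 0, without replicate 4. Among the genes given array by array, it changed sign with the prefix for Mki67 (0.056), Ccnd3 (0.0286) and Ccna2 (0.0265). With the prefix these are the values of replicate 5 itself. The cause of any of these changes was not tested. Of the means of those genes at 24 hours and over both times under alternatives, 516 kept direction and side of the threshold, 65 lost it, 23 gained it and 5 changed sign. The 6 hour means and the difference between times are not part of this count.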

Other observations

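DNA damage response genes were measured in 15 of 24 cases, and over both times 2 rose and 1 fell (20%, below the 35.5% of all features called; median -0.14). Brca2, which loads the recombinase at broken or stalled forks, read 0.48, 0.85 and 1.02 at 6 hours and 1.06, 0.64 and 1.02 at 24 hours. It was above 0 on all 6 arrays and rose at 6 hours (0.78 ± 0.15, adjusted p = 0.0498), at 24 hours (0.91 ± 0.15, 0.0166) and over both times (0.84 ± 0.11, 0.00470). Its partner Brca1 rose over both times (0.45, adjusted p = 0.0140) on 2 rows averaged, and Fancd2 of the Fanconi anaemia pathway fell (-0.29, 0.0476).

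The cohesin acetyltransferase gene Esco1 and the centromere gene Cenpc1 had the smallest p among the other mitosis genes. Esco1 read -0.89, -1.25 and -1.79, then -1.94, -1.60 and -2.0, and fell over both times (-1.58 ± 0.13, adjusted p = 0.00222). Cenpc1 had no value on replicate 1 and read 1.08 and 1.88, then 1.83, 0.99 and 1.74, and rose (1.5 ± 0.19, n = 5 arrays, adjusted p = 0.00599). Each rested on a single probe row.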
